A study of Mus musculus with 6 samples.

Results

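The genes described here carry cyclic nucleotide and G protein signalling: the subunits of heterotrimeric G proteins (Gna, Gnb and Gng genes), the regulators of G protein signalling (Rgs genes), the adenylyl cyclases, the neuropeptide *Adcyap1* (PACAP) and its receptor *Adcyap1r1*, the phosphodiesterases, the catalytic and regulatory subunits of protein kinase A (Prkac and Prkar genes), protein kinase G (*Prkg1*) and the A-kinase anchoring proteins. They were taken by symbol, with *Pde4d* and its 4 events left out by name, and any event of the congenic interval of chromosome 19 was to be left out, though none of these genes had one there. The symbol rule uses no measured value. The array table listed 110 alternative RNA processing events of these genes out of 13002 events in all. Intensities were given for 109 of the 110, in 57 genes, against 12948 events in 7766 genes over the whole table. The event without intensities was an alternative end of *Gnao1*.

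Total RNA from whole brains of 6 mice of a B6.CAST congenic line was hybridized to Affymetrix MJAY arrays, which carry probes for exons and for exon junctions, to ask whether alleles of the mRNA export factor *Nxf1* alter alternative RNA processing. Of the 6 animals, 3 were homozygous for *Nxf1* B6 and 3 for *Nxf1* CAST, in 3 littermate pairs of the same sex. The pair numbered 1 was female and 46 days old, the pair numbered 2 was male with a *Nxf1* B6 animal of 22 days and a *Nxf1* CAST animal of 23 days, and the pair numbered 3 was female and 23 days old. All 6 animals shared the B6 background, and the *Nxf1* CAST animals carried the CAST segment of chromosome 19 around *Nxf1*, so the allele cannot be told apart from its linked neighbours in that segment.

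The table gave no value per animal. It gave, for each event, 1 pooled exclusion intensity and 1 pooled inclusion intensity for a set A and a set B, so there was no spread between animals, no standard deviation and no test for any difference below, and the number of arrays limits the precision. The change of an event was the log2 of its exclusion to inclusion ratio in set B divided by the same ratio in set A. Set B was likely *Nxf1* CAST and set A likely *Nxf1* B6: the file header defines the deposited score as mutant over wild type, the Methods define it as *Nxf1* CAST over *Nxf1* B6, and the sign of the deposited score followed set B over set A. The set letters are not the genotype letters of the sample labels. An event was counted as past the threshold when its absolute change was over 0.5, a 1.41-fold difference between the ratios. In whole brain, fewer cells of a type and less RNA per cell cannot be told apart.

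When a ligand activates its receptor, the G protein alpha subunit exchanges GDP for GTP and separates from the beta and gamma subunits, and both parts of the complex act on enzymes and channels. RGS proteins speed the hydrolysis of that GTP and so end the signal. Adenylyl cyclases make cAMP in response to G proteins, phosphodiesterases break down cAMP and cGMP, protein kinases A and G are switched on by these nucleotides, and A-kinase anchoring proteins hold protein kinase A near its substrates. In brain this pathway tunes excitability, and cAMP-driven transcription acts through the cAMP response element, TGACGTCA, and its core TGACG.

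Alternative starts were the most frequent type among these genes, with 32 of 109 events (29.4%, against 17.4% of all events). Past the threshold were 4 of the 32 (12.5%), against 6.32% of all alternative starts. The median absolute change of the 32 was 0.08, below the 0.16 of all alternative starts. The promoters of the genes whose start event passed the threshold are shown. RefSeq windows on GRCm38.p6, each 300 bases long and reaching from 250 bases before to 50 after an annotated start, were matched by symbol for 47 of the 57 genes (96 windows). Capitals mark the core TGACG or its reverse complement CGTCA, searched on both strands, and thereby the full element TGACGTCA, which reads the same on both strands and contains the core on each. *Pde7a* had no entry.
Adcyap1 chr17:93198767-93199066 (+ strand): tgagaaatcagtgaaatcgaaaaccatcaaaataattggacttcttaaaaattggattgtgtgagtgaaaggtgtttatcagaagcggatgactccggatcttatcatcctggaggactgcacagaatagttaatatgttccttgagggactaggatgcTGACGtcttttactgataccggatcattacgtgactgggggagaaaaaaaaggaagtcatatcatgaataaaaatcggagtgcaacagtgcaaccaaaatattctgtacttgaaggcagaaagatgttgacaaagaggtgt
Gng13 chr17:25716922-25717221 (+ strand): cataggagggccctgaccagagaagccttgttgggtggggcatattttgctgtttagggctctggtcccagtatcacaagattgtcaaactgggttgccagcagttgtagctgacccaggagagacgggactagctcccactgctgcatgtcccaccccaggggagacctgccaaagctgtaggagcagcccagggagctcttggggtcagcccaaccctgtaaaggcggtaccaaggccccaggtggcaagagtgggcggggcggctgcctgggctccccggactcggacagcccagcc
Gng13 chr17:25717278-25717577 (+ strand): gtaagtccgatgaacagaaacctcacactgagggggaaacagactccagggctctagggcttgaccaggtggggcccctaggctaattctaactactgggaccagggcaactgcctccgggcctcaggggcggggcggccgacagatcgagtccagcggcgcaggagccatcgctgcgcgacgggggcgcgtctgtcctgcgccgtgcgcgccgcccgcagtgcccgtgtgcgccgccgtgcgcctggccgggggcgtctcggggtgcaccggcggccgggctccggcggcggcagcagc
Rgs6 chr12:82617249-82617548 (+ strand): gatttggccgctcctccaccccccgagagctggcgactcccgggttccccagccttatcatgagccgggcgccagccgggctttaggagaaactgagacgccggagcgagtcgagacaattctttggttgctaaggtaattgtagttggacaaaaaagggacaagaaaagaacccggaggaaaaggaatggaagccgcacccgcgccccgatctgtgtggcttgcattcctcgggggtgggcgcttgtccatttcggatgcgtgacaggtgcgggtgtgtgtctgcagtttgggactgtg
Prkar1a chr11:109650699-109650998 (+ strand): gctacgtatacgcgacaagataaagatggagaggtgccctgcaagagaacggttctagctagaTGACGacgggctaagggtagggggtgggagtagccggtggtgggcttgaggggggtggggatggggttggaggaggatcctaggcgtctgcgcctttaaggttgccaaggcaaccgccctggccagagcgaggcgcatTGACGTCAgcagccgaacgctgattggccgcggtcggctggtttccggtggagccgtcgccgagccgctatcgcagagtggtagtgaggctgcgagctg
The *Adcyap1* window held 1 core, at position -91 from the annotated start, and a second *Adcyap1* window began 151 bases further on and held the same core. Neither *Gng13* window, with starts 356 bases apart, and not the *Rgs6* window held the core. *Prkar1a* was printed because it alone of the matched genes held the full element. The element stood in 2 overlapping *Prkar1a* windows whose starts lay 87 bases apart. These were the 2 of 96 windows (2.08%) with it, against 588 of 32851 windows over all genes (1.79%). The core stood in 22 of the 96 windows (22.9%) and in 20.8% of all windows. A match describes the letters of the window, and no match says only that the letters are not in it. The positions of these windows are those of GRCm38.p6, whereas the assembly behind the array table is not given in the sources used here, so windows and event positions were not joined.

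Of the 109 events, 11 (10.1%) passed the threshold, in 10 genes, and 7.34% of all 12948 events did. Among events with an exclusion path, 4 of 104 were above 0.5, where the share over all events was 4.52%, and 6 of 104 were below -0.5, where it was 2.72%. The remaining event past the threshold, in *Rgs7*, had no exclusion path. The median absolute change was 0.18 in these genes and 0.18 over all events, and the 90th percentile was 0.49 against 0.45. The signalling events were therefore about as far from 0 as the rest of the table, and the exclusion to inclusion ratio was higher in set B for 54 and lower for 50 (51.9% higher, against 55.3% of all events).

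**Figure D1:**
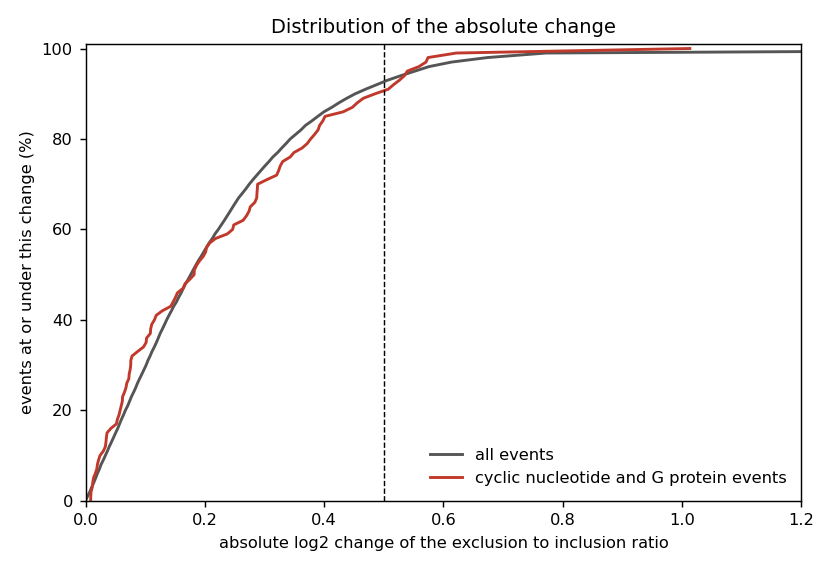
Cumulative share of events (y axis, percent) at or under each absolute log2 change of the exclusion to inclusion ratio (x axis), for the 109 signalling events (red) and all 12948 events (grey), with the 0.5 threshold dashed. The curves have the same median of 0.18, and the red curve lies slightly lower at the threshold, where 10.1% of signalling events and 7.34% of all events were still to come.

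Most events past the threshold lay close to it. Between 0.51 and 0.57 were 9 of the 11, 6 were within 0.05 above the threshold, and 3 further events were within 0.05 under it. Rounding of the deposited whole numbers could change the side of 1 event, in *Adcyap1*. Above log2 of 1.5 there were 2 of the 109 events (1.83%), in *Pde7a* and *Pde5a*, against 3.78% of all events. In 10 of the 11 the exclusion and inclusion intensities differed in opposite directions between the sets, as in 82.6% of all events past the threshold. The exclusion intensity differed more than the inclusion intensity in 8 of the 11, counting the leading path of the *Rgs7* event without an exclusion path as exclusion. The matching share over all events past the threshold was not computed, so whether this count is usual for such events is not known.

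**Figure D2:**
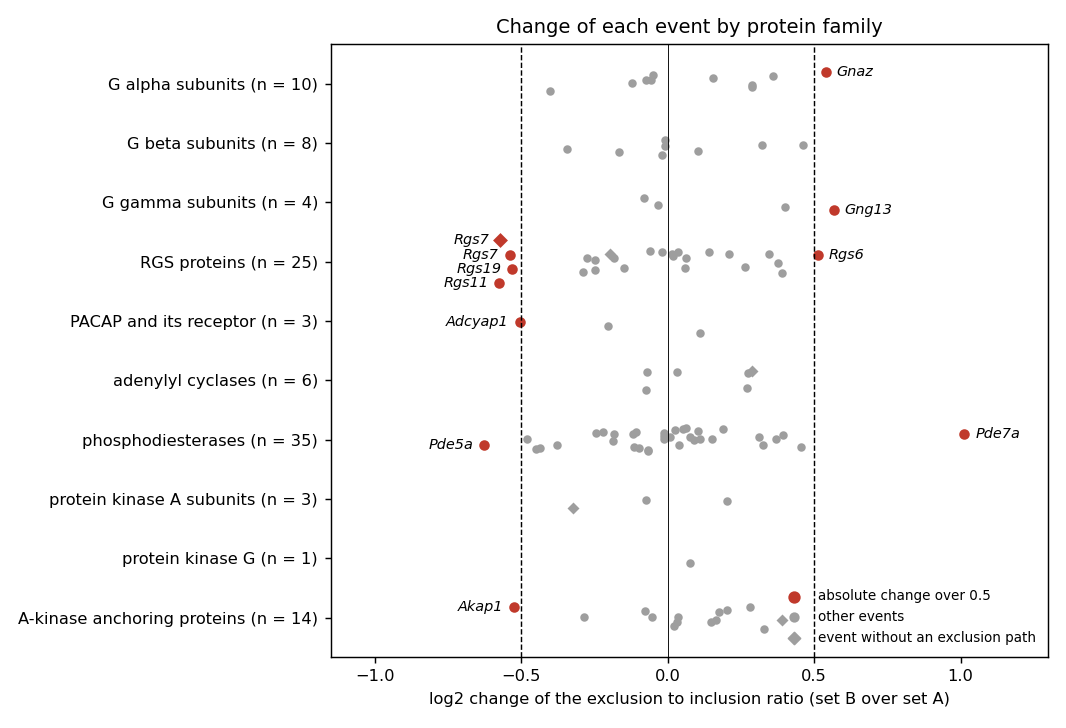
Log2 change of the exclusion to inclusion ratio, set B over set A (x axis), for each of the 109 events by protein family (y axis, with the number of events n). Points are pooled values without error, red points are past 0.5 (dashed lines), diamonds are events without an exclusion path, and vertical scatter within a family has no meaning. *Pde7a* at 1.01 stands alone, while the other red points lie between 0.51 and 0.63 in absolute value.

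Among the G protein alpha subunits, 1 of 10 events in 7 genes passed the threshold. It was a cassette exon of *Gnaz*, which encodes Gz, an inhibitor of adenylyl cyclase that pertussis toxin does not modify. The event lay at chr10:74430107-74453699 as the table gives it, with an exon of 66 nucleotides by its name. From set A to set B, exclusion read 901 and 1120, and inclusion read 704 and 602. The exon was thus relatively more often skipped in set B, with a change of 0.54. *Gnas*, the locus of the stimulatory Gs subunit with several starts, had 4 events, and they did not share a direction. A complex event of *Gnas* read 105 and 90 for exclusion against 1146 and 1298 for inclusion, a change of -0.40, another complex event 346 and 344 against 509 and 394, a change of 0.36. The 2 alternative ends of *Gnas* changed by 0.29 and -0.12. The other alpha subunits with an event (*Gna11*, *Gna13*, *Gnai2*, *Gnal* and *Gnao1*) lay between -0.07 and 0.29.

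None of the 8 events of the 4 genes with a beta subunit symbol passed the threshold. The largest change was in *Gnb1l*, which encodes a WD repeat protein that resembles the beta subunits and was counted here by symbol, at an alternative 3' splice site with exclusion intensities of 922 and 1243 and inclusion intensities of 268 and 262 in sets A and B, a change of 0.46. The 4 events of *Gnb1l* spread from -0.34, at its alternative start, to 0.46. *Gnb1*, the common brain beta subunit, had high intensities in both forms of a cassette exon, 4755 and 5769 for exclusion and 5788 and 6542 for inclusion, and changed by 0.10. Both cassette exons of *Gnb4* were at -0.01.

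Of 4 gamma subunit events in 3 genes, 1 passed the threshold, at an alternative start of *Gng13* (chr17:25854168-25855611 in the table). *Gng13* encodes the gamma subunit of the G proteins of taste receptor cells and retinal ON bipolar cells. In sets A and B, exclusion intensity was 1328 and 1707, inclusion intensity was 1039 and 901, and the change was 0.57. The table does not define which start is called exclusion and which inclusion, so the change shows only that the balance between the start forms differed between the sets. A cassette exon of *Gng2*, a gamma subunit abundant in brain, changed by 0.40, and the other gamma events lay between -0.08 and -0.03.

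The RGS proteins held 5 of the 11 events past the threshold, among 25 events in 10 genes (20% of the family's events, against 7.34% of all events). The 5 lay in *Rgs6*, *Rgs7*, *Rgs11* and *Rgs19*. *Rgs6*, *Rgs7* and *Rgs11* belong, with *Rgs9*, to the R7 subfamily, which binds the beta subunit Gnb5 and is expressed in neurons. The single event of *Rgs9*, an alternative end, had the smallest absolute change of the RGS events, 0.01. *Rgs7* gave 2 of the 5, but these overlap in position and are not separate measurements of the gene. The first, at chr1:176989925-177008319, is a complex event with several paths and no exclusion path, and the path with the largest change read 701 (set A) and 468 (set B) while its comparison path read 2443 and 2424, a change of -0.57. Its other paths read 471 and 329, a change of -0.51, and 417 and 365, a change of -0.18. All 3 paths were thus lower in set B while the comparison path was nearly level. The second event of *Rgs7*, at chr1:177006228-177008319, had exclusion intensities of 1455 and 1232 and inclusion intensities of 165 and 203, a change of -0.54.

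*Rgs11* had the most events of any gene in the group, with 7. A retained intron of *Rgs11* named as 86 nucleotides long, at chr17:26344402-26344490, had exclusion intensities of 148 and 113 and inclusion intensities of 489 and 556 in sets A and B. Here exclusion is the spliced form and inclusion the form that keeps the intron, so the intron-containing signal was relatively higher in set B, with a change of -0.57. The other 4 retained introns of *Rgs11* were all under the threshold. The 2 next ones downstream had the same direction, at -0.18 and -0.15, and the 2 further upstream the opposite one, at 0.35 and 0.02. An alternative 3' splice site of *Rgs11* changed by 0.26 and its alternative end by 0.21. Both intensities of that 3' splice site were higher in set B (385 and 512 for exclusion, 299 and 331 for inclusion).

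*Rgs19*, a regulator of the Gi class of alpha subunits, had 4 events. Its retained intron named as 79 nucleotides long, at chr2:181424000-181424081, read 203 and 172 for exclusion and 681 and 833 for inclusion, a change of -0.53, so the intron-containing form was again relatively higher in set B. A pair of overlapping complex events of *Rgs19* stood on opposite sides of 0, at 0.38 and -0.25, and its alternative start was at 0.03. The alternative start of *Rgs6*, at chr12:83718024-83752795, had exclusion intensities of 243 and 339 with inclusion nearly level at 455 and 445, a change of 0.51, while the other *Rgs6* event was at 0.06. *Rgs3*, an RGS gene that the study names, had 5 events and none past the threshold. Their changes were -0.27 at an alternative end, -0.20 in a complex event without an exclusion path, 0.14 and -0.02 at its alternative starts and 0.06 at an alternative 5' splice site. Of the remaining RGS genes, a cassette exon of *Rgs20* was highest at 0.39 and one of *Rgs8* lowest at -0.29.

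PACAP is a neuropeptide that raises cAMP through its receptor. The alternative start of its gene *Adcyap1*, at chr17:93598360-93599352 in the table, had exclusion intensities of 521 and 403 and inclusion intensities of 102 and 112 in sets A and B. The change of -0.51 lay just past the threshold, and the rounding of the intensities allows an error of 0.02 in it. The receptor gene *Adcyap1r1* had changes of -0.20 at an alternative 5' splice site and 0.11 at a cassette exon.

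No event of the 6 adenylyl cyclase genes passed the threshold. The largest changes were 0.29 in a complex event of *Adcy7* without an exclusion path, whose leading path read 766 and 1011 against 298 and 322, then 0.27 at an alternative end of *Adcy10*, the soluble cyclase that bicarbonate activates, and 0.27 at an alternative start of *Adcy1*, which calcium and calmodulin stimulate. *Adcy3*, *Adcy4* and *Adcy6* lay between -0.07 and 0.03. All 6 cyclase events were under the 90th percentile of all events.

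The phosphodiesterases were the family with the most events, 35 in 14 genes, and 2 of them (5.71%) passed the threshold. *Pde4dip*, which encodes a protein that binds a phosphodiesterase, and *Pde6d*, which encodes a chaperone for lipid-modified proteins, were counted here by symbol. *Pde7a*, a cAMP-specific enzyme, had the largest change of all 109 events. Its alternative start, at chr3:19160292-19211322, had exclusion intensities of 125 and 216 and inclusion intensities of 334 and 286 in sets A and B. The ratio was 2.02-fold higher in set B, a change of 1.01 that ranked 29 among all 12948 events. Its lowest intensity, the 125, was at the 16.3 percentile when all single intensities of all events, exclusion and inclusion in both sets, were ranked together. Lower still among the events past the threshold were *Adcyap1* (102, 10.1 percentile), *Akap1* (109, 11.9) and the *Rgs11* intron of 86 nucleotides (113, 13.0).

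*Pde5a*, the cGMP-specific enzyme that sildenafil inhibits, had the lowest change, at a retained intron named as 1629 nucleotides long (chr3:122477542-122479173). Exclusion intensities were 326 and 240 and inclusion intensities 81 and 92, a change of -0.63. The intron-containing signal, relatively higher in set B, was dim: the 81 was at the 4.7 percentile in the same ranking. The alternative start of *Pde5a* was at -0.22 and its alternative end at 0.15. *Pde4a*, a cAMP-specific enzyme, had 2 retained introns just under the threshold, at -0.48 (635 and 537 for exclusion, 150 and 177 for inclusion) and -0.45 (579 and 361 for exclusion, 428 and 364 for inclusion), with its alternative start at 0.08 and its alternative end at -0.01. An alternative end of *Pde8b* was at 0.46, and a cassette exon of *Pde2a*, the enzyme that cGMP stimulates, at -0.44. The median absolute change of the family was 0.12, below the 0.18 of all events. The 4 events of *Pde4dip* were at most 0.10 from 0, and those of the calmodulin-dependent *Pde1a* at most 0.12. Those of *Pde1c* were at most 0.33 from 0, and those of *Pde4b* at most 0.31.

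None of the kinase events passed the threshold. *Prkacb*, a catalytic subunit of protein kinase A, was furthest from 0 with -0.32 in a complex event without an exclusion path, whose leading path read 479 and 395 against 2676 and 2762. The alternative start of *Prkar1a*, the regulatory subunit whose promoter is printed above, was at 0.20 (1020 and 1085 for exclusion, 428 and 396 for inclusion). The alternative start of *Prkaca* was at -0.07, and that of *Prkg1*, on chromosome 19 but outside the congenic interval, at 0.08.

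Among the A-kinase anchoring proteins, 1 of 14 events in 7 genes passed the threshold, a cassette exon of *Akap1*, which holds protein kinase A at the outer mitochondrial membrane. The exon, named as 107 nucleotides long at chr11:88702616-88705572, had exclusion intensities of 235 and 207 and inclusion intensities of 109 and 138. The change of -0.52 is a relatively higher inclusion in set B. The alternative start of *Akap1* was at 0.02. The 3 events of *Akap2* with an exclusion path were above 0, from 0.15 to 0.28. The paths of its complex event without one were at 0.39 and -0.05. The events of *Akap8* were at 0.18 and 0.33.

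**Figure D3:**
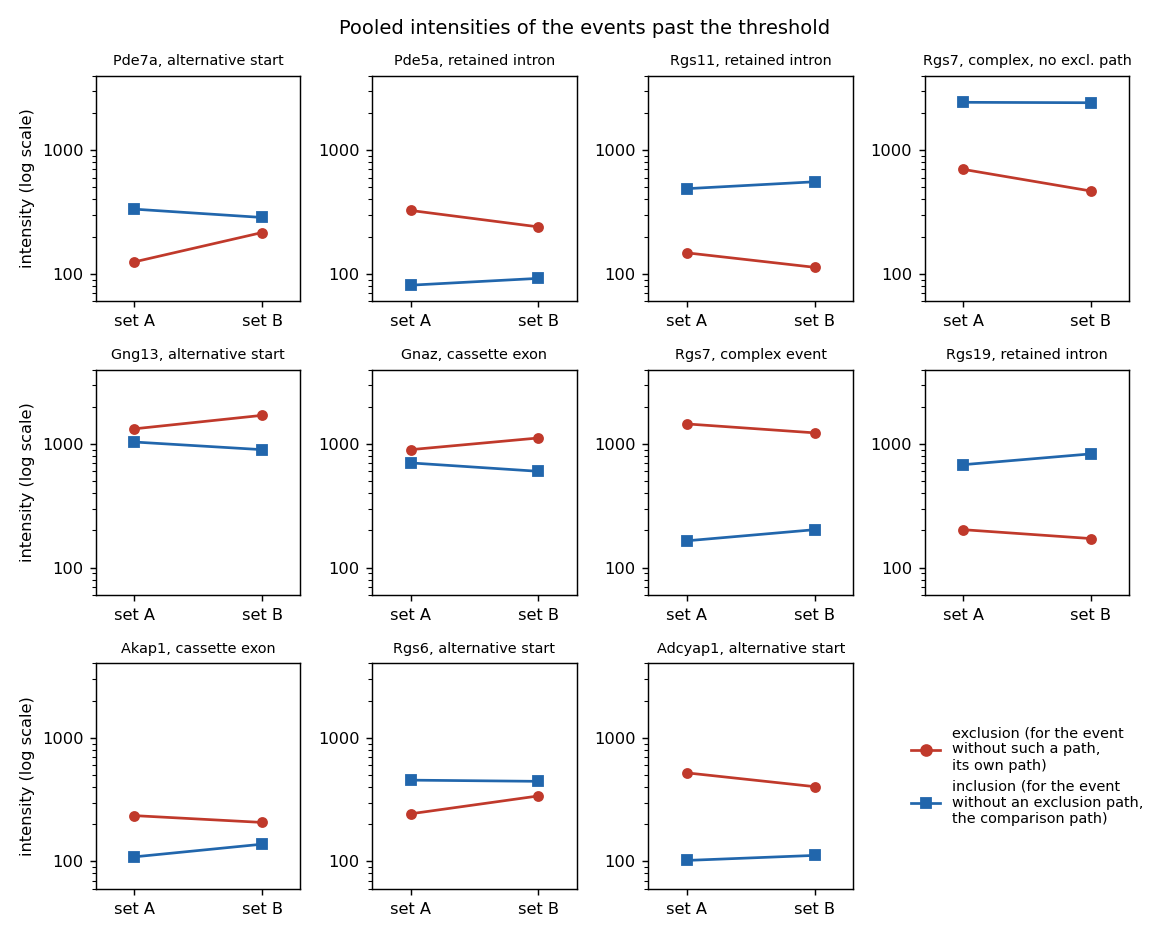
Pooled exclusion (red circles) and inclusion (blue squares) intensities in sets A and B (x axis) for the 11 events past the threshold, on a log intensity axis that is the same in every panel. For the *Rgs7* event without an exclusion path, red is its leading path (701 and 468) and blue its comparison path (2443 and 2424), and there are no error bars because the table holds 1 pooled value per set.

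A ratio can stay level while both forms differ. The mean of the log2 differences of both intensities, set B over set A, described this level. Its median absolute value was 0.10 in the signalling events and 0.12 over all events, and it ran from -0.46 to 0.45. The highest was *Adcy4*, where both forms of an alternative 5' splice site were higher in set B (572 and 788 for exclusion, 390 and 526 for inclusion) with a ratio change of 0.03. The lowest was the longer *Pde4a* intron, followed by the *Pde4a* start, where both forms were lower in set B (680 and 523, 740 and 540). The other 2 *Pde4a* events had levels of -0.0015 and -0.05, so the events of this gene did not share 1 level difference. A cassette exon of *Rgs17* (626 and 440 for exclusion, 285 and 238 for inclusion) and one of *Gnb4* (312 and 247, 511 and 407) were also lower in set B, with levels of -0.38 and -0.33. Higher in set B were *Adcy10*, with a level of 0.37, an alternative start of *Gnb1l* (0.36) and one of *Pde8b* (0.34).

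**Figure D4:**
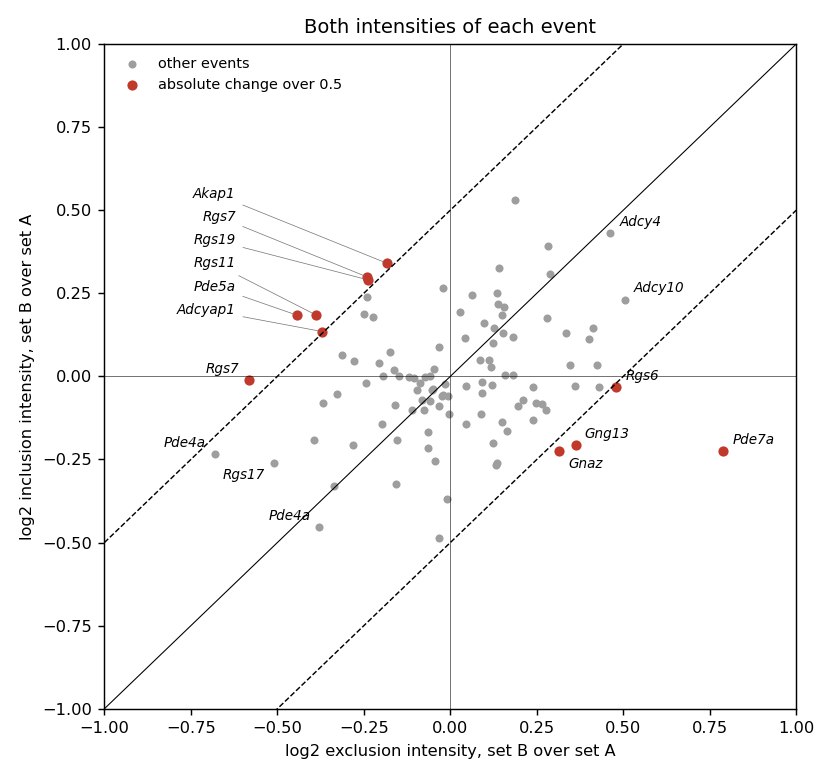
Log2 difference between set B and set A of the inclusion intensity (y axis) against that of the exclusion intensity (x axis) for the 109 signalling events, with no change of ratio on the solid diagonal and a ratio change of 0.5 on the dashed diagonals. Events past the threshold are red, and the 5 events with the largest level differences are also named, of which *Adcy4* (0.45) and *Pde4a* (-0.46) lie furthest out. For events without an exclusion path the x axis is the leading path.

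Events of 1 gene share probes and exons and are not separate samples of the gene. Of the 57 genes, 33 had 1 event, 11 had 2, 2 had 3, 9 had 4 and 2 had 5 or more. Counted by gene, 10 of 57 (17.5%) had an event past the threshold, against 11.7% of all genes. A gene counts when any of its events passes, so these shares also depend on the number of events per gene. That number was not the same, with 109 events in 57 genes here and 12948 in 7766 over the whole table. The 9 genes with 4 events were *Akap2*, *Gnas*, *Gnb1l*, *Pde1c*, *Pde4a*, *Pde4b*, *Pde4dip*, *Pde8b* and *Rgs19*, and of these only *Rgs19* had an event past the threshold.

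Of 65 further genes of the pathway (receptor kinases, arrestins, guanylyl cyclases, nucleotide-gated channels, CREB factors and others), 34 were on the array, with 71 events. Past the threshold were 4 of these (5.63%), a share below the 7.34% of all events: an alternative start of *Crem*, a CREB family factor with cAMP-inducible forms, at -0.73, an alternative end of the arrestin *Arrb2* at 0.70, an alternative start of *Abcc5*, a cyclic nucleotide exporter, at 0.54, and an alternative start of the guanylyl cyclase subunit *Gucy1a3* at 0.53. Counted by gene, the share was 11.8%, against 11.7% of all genes. The *Crem* intensities were low (83 and 60 for exclusion, 112 and 134 for inclusion). Of the 67 events with a sign, 43 were above 0 and 24 below (64.2% above, against 55.3% of all events).

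As a check of the label brain, exclusion and inclusion intensities were summed per event of the neuronal markers (*Snap25*, *Syt1*, *Gad1*, *Slc17a7*). These sums ran from 3215 to 20035 in set A and from 2993 to 19107 in set B. The median single intensity of the table, which is not a sum, was 294. Sums in set A ran from 671 to 12338 for astrocyte, from 1581 to 13379 for oligodendrocyte and from 409 to 733 for microglial markers. Between the sets, gene levels on the log2 scale ran from -0.21 to 0.14 for 4 of 5 neuronal markers on the array, from -0.14 to 0.11 for 5 of 5 astrocyte markers, from -0.09 to 0.07 for 3 of 5 oligodendrocyte markers and from -0.09 to 0.05 for 2 of 5 microglial markers. The 2 endothelial markers were at -0.13 and -0.12, the choroid plexus marker *Folr1* at -0.13, the blood marker *Alas2* at 0.11 and the markers of immature neurons at -0.09 and -0.05. The part of these differences in the signalling events was not tested.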

How the data were processed

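Brain RNA of 3 *Nxf1* B6 and 3 *Nxf1* CAST animals (3 littermate pairs) was measured on 6 MJAY arrays. Arrays were processed with Affymetrix Power Tools per the labels and the Omniviewer software per the file headers. Versions, background correction, normalization and genome build are not given in the sources used here. Exclusion and inclusion intensities were deposited by the authors as whole numbers pooled over the arrays of a set (recorded here as a score, since how they were scaled is not stated). The authors also deposited a separation score as a log2 value with a q-value for each path. These hold their own comparisons, and only the sign of the score was read, to learn the direction of the sets. Columns of per-sample values not used numbered 0.

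From the intensities, the log2 of the exclusion to inclusion ratio in set B over set A was computed for each path with an offset of 0. An event took the path with the largest absolute change, with the sign of its exclusion path, and was past the threshold above 0.5. Without values per array no test could be made, so counts and medians stand beside those of all events. The computation was tested on simulated data, made from the deposited intensities with known changes put in and no noise added. This checks the arithmetic alone and says nothing about array noise or about changes close to the threshold. Python 3.11.15, numpy 2.4.6, pandas 2.3.3 and matplotlib 3.10.9 were used. Events named are all those past the threshold, the largest change of each family, and every event of *Rgs11* and *Rgs3*, which had the most events. *Rgs3* is also named by the study. For some of the 9 genes tied at 4 events, only the largest change or a range was given. Other events were named after their values were seen. Protein sequences had been planned, but no protein reference was at hand, and the promoter windows were an unplanned substitute. The members and lists were chosen with earlier results of these data known. Alternatives were other thresholds, paths, intensity minimums, offsets, centrings and genes in place of events. A further alternative left out *Adcyap1*, *Adcyap1r1*, *Pde4dip* and *Pde6d* but kept *Gnb1l*. The lowest intensity in the table was 43 and the median 294.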

Additional observations from a re-analysis of the deposited data

How the results depend on the processing

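The 11 signalling events past the threshold became 2 at a threshold of log2 of 1.5, 1 at a threshold of 1, 22 when single paths were counted, and 4 with an offset of 64 added to each intensity, and ranged from 8 to 11 in the other settings. Under the same settings the 950 events of the whole table became 489, 29, 1863 and 340, and the 4 events of the other pathway genes became 2, 0, 8 and 1. The 6 families with an event past the threshold became 1 at log2 of 1.5 and 1 at a threshold of 1. They became 4 with an offset of 16 or 64 and 5 after centring on the median of the event type. Leaving out *Adcyap1*, *Adcyap1r1*, *Pde4dip* and *Pde6d* also gave 5, and the other settings gave 6. The median absolute change of 0.18 became 0.27 when each gene was counted by its largest event, and that of all events then became 0.24. Both of these medians also depend on the number of events per gene. The causes of these differences, beyond the settings' own construction, were not tested. The share of signalling events past the threshold was above that of all events in 14 of 15 settings, the exception being log2 of 1.5. All settings use the same pooled values and are not separate evidence. At a threshold of 1 the share rests on 1 event. Of 76 values of the 11 events under alternatives, 64 stayed past the threshold, 12 fell under it and 0 changed sign. Those under it were *Adcyap1*, *Akap1* and *Rgs6* with either offset, *Rgs6* after centring on the median of all events (0.48), *Gnaz* after centring on the median of its event type (0.50), and *Pde5a*, *Rgs11*, *Rgs19* and 1 of the *Rgs7* events with an offset of 64. *Pde5a* had no value where every intensity had to reach 100. Only the intensities that the authors labelled as paired were used, and no comparison with unpaired ones was run. No paired analysis was possible because the table holds pooled values and none per array, and for the same reason no replicate could be left out.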

Other observations

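Retained introns were looked at as a type after their values were seen. Of the 14 retained introns of signalling genes, 3 had a higher exclusion to inclusion ratio in set B and 11 a lower one, so 21.4% were above 0, whereas 56.1% of all 1064 retained introns were (597 above, 467 below). A lower ratio is relatively more signal for the intron-containing form in set B. Past the threshold were 3 of the 14 (21.4%), in *Pde5a*, *Rgs11* and *Rgs19*, all below -0.5, against 105 of all 1064 (9.87%). The median exclusion intensity of the 14 differed by -0.16 and the median inclusion intensity by 0.08 on the log2 scale, set B over set A, where the medians over all retained introns were 0.04 and -0.02. The 14 introns lie in 9 genes, and *Rgs11* has 5 of them. No test could be made of this pattern, and it was chosen for its values.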
